A study of Homo sapiens with 24 samples.

Results

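The genes of MHC class I antigen presentation were followed in 3 human breast cancer cell lines that express the estrogen receptor (ER+), namely ZR-75-30, HCC1500 and MDA-MB-175, cultured in low (LG) or high glucose (HG). The members are the genes listed in the deposited table under the symbols HLA-B, HLA-C, HLA-E, HLA-F, B2M, TAP1, TAP2, TAPBP and NLRC5. These 9 genes are among 18889 gene IDs in the table, and they take up 10 of those IDs because TAP2 is listed under a pair of IDs. Each line was grown in medium with 5 mM glucose, the control condition, or 25 mM glucose, the model of hyperglycemia, for 48 hours, with 4 samples in each of the 6 groups and 24 in all. By the study's methods the cells had first been conditioned in low glucose and were then kept without serum in both conditions. An osmotic control is not named for these samples, so glucose itself and the added osmolarity cannot be told apart. Each line is a single established line, and the labels do not say whether the 4 samples of a group were cultures started separately, so the p-values below measure the spread between these samples. In RNA from a whole culture, a change in every cell and a change in a share of the cells cannot be told apart.

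MHC class I molecules carry short peptides from inside the cell to its surface, where CD8+ T cells and natural killer cells read them. The heavy chain, encoded by an HLA gene, pairs with beta-2 microglobulin, the product of B2M, in the endoplasmic reticulum. Peptides made by the proteasome enter through the TAP transporter, and tapasin (TAPBP) holds the empty class I molecule next to the transporter until a peptide is bound. NLRC5 is the transactivator that binds with other factors to a shared promoter module of these genes, and interferon is a known inducer of most of them.

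The samples held between 9140024 and 17998819 recovered reads. The floor of detection was set at 3 reads, which stood for 0.953 to 2.29 normalized read counts. In HCC1500 the LG samples were all deeper (13190982 to 17998819 reads) than the HG samples (9423472 to 12140912 reads). Of the 9 markers of ER+ luminal epithelium, all were listed, and the keratins KRT8 and KRT18 had group means from 3065 to 23251. ESR1, which encodes the estrogen receptor, had group means from 257.7 to 3616, whereas PGR was at or below 2.39 outside HCC1500, and CDH1 was at 55.6 in ZR-75-30 in LG against 6499 in MDA-MB-175. TXNIP, a well-known glucose-induced gene and a check of the labels, rose in each line with no overlap between conditions, by 1.02 in HCC1500, 0.76 in ZR-75-30 and 0.39 in MDA-MB-175 on the log2 scale. A single library stood apart. HCC1500 HG replicate 3 was above the other 3 HG samples of its line in 7 of the 9 members, so the HCC1500 results of the members, and of the other genes named for that line, are given with and without it. Across 12639 genes with a mean of at least 10 in the other 3 samples, the median ratio of this library to their mean was 1.20. Of these genes 16.9% were more than 2-fold above and 7.19% more than 2-fold below.

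The start sites of the members were read from RefSeq to show the promoter letters that these genes share. Windows of 300 bases, from 250 before to 50 after an annotated start, were found for 7 of the 9 members, and TAP1 had a pair of them. HLA-E and NLRC5 had no window. Shown are the heavy chain genes HLA-B, HLA-C and HLA-F, their partner B2M, and TAP1 and TAPBP, and all 6 were higher in HG in ZR-75-30. The window of TAP2, which was also higher there, and the second TAP1 window were searched but are not shown. The build is GRCh38.p14, each sequence runs 5′ to 3′ on the strand of the gene, and capitals mark a match to one of 6 motifs on either strand: the CCAAT box (ATTGG), the X2 and CRE forms TGACGC and TGACGT, the interferon-stimulated response motif (GAAA, any 2 bases, GAAA), the GAS letters TTCNNNGAA, and the palindromic NF-kappaB motif, the longest run of capitals in the HLA-B window. Overlapping matches run together in capitals.
HLA-B (chr6:31357130-31357429, minus strand): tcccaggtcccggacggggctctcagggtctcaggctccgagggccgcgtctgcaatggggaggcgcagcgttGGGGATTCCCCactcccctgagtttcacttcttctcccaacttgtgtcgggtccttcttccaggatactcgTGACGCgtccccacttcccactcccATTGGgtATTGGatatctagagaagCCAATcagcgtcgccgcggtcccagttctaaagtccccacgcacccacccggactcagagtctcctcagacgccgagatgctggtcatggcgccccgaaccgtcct
HLA-C (chr6:31272043-31272342, minus strand): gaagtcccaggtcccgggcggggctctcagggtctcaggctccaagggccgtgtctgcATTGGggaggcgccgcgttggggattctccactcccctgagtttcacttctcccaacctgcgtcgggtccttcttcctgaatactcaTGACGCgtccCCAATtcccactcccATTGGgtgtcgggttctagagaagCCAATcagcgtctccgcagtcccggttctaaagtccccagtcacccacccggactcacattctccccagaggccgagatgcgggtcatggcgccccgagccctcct
HLA-F (chr6:29723184-29723483, plus strand): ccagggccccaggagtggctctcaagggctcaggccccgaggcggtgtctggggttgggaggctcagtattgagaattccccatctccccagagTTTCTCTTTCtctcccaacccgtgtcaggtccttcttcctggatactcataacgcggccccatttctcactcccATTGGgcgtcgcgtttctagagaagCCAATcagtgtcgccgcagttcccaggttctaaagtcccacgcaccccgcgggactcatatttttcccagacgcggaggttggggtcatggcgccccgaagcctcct
B2M (chr15:44711267-44711566, plus strand): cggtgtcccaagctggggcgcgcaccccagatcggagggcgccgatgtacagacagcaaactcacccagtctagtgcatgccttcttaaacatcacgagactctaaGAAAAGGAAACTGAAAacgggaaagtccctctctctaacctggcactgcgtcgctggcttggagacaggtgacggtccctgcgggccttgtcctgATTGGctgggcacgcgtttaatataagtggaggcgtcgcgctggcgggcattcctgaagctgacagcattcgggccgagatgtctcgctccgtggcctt
TAP1 (chr6:32853655-32853954, minus strand): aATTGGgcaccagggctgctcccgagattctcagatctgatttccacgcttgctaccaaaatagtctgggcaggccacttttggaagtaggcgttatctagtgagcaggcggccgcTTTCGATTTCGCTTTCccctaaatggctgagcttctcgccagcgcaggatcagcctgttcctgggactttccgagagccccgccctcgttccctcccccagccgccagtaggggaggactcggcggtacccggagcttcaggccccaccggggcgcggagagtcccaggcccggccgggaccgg
TAPBP (chr6:33314029-33314328, minus strand): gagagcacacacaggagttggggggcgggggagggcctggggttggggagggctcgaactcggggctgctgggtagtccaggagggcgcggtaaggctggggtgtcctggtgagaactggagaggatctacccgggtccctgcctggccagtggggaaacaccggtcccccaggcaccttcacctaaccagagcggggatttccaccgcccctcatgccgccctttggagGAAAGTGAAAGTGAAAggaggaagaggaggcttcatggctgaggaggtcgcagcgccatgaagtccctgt

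The 3 heavy chain windows, B2M and TAP1 held the CCAAT letters, TAP1 at the far end of its window (-249). With the last base before the start counted as -1, HLA-B and HLA-C held them on the opposite strand at -56 and HLA-F at -57, and B2M on the gene's strand at -49. HLA-B and HLA-C also held TGACGC, at -106 and -105, and TAP2 held it at -35. HLA-B held the NF-kappaB motif at -177. ATTGG was found in 34.61% of 35116 RefSeq windows of the same length and TGACGC in 9.14%. The NF-kappaB motif was found in 11 windows (0.03%). The interferon-stimulated response motif, found in 3.57% of windows, was present in HLA-F, TAP2, B2M, TAP1 and TAPBP, and in the last 3 as an overlapping pair. TTCNNNGAA, found in 7.66% of windows, was present in the second TAP1 window only, and TGACGT, found in 7.98%, in none of the 8 windows. A match is a description of the letters in the reference and not a site shown to be used. These are reference sequences, and the lines' own HLA alleles may differ from them.

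The first question was whether high glucose changed the level of the class I genes within each line. In ZR-75-30 all 9 members rose, with log2 changes from 0.43 (TAPBP) to 2.22 (HLA-F). In MDA-MB-175 there were 6 members that rose, by 0.16 to 0.68, and none that fell. In HCC1500 B2M rose by 1.16 and HLA-E by 0.91, and the other 6 members tested did not pass, with estimates above 0 for HLA-B and HLA-C and below 0 for TAP1, TAP2, TAPBP and NLRC5. Over all genes tested, 46.0% were called in ZR-75-30 (23.4% higher and 22.7% lower), 25.7% in MDA-MB-175 (11.9% and 13.7%) and 20.5% in HCC1500 (7.46% and 13.0%), so a call is common in these data. The median change of the members was 1.25 in ZR-75-30, 0.25 in MDA-MB-175 and 0.33 over the 8 members tested in HCC1500, beside medians of 0.01, -0.02 and -0.06 over all genes tested. Changes are log2 differences of (normalized read count + 1), HG minus LG, from limma with Benjamini-Hochberg adjustment over all genes tested in that line, called at an adjusted p under 0.05.

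**Figure D1:**
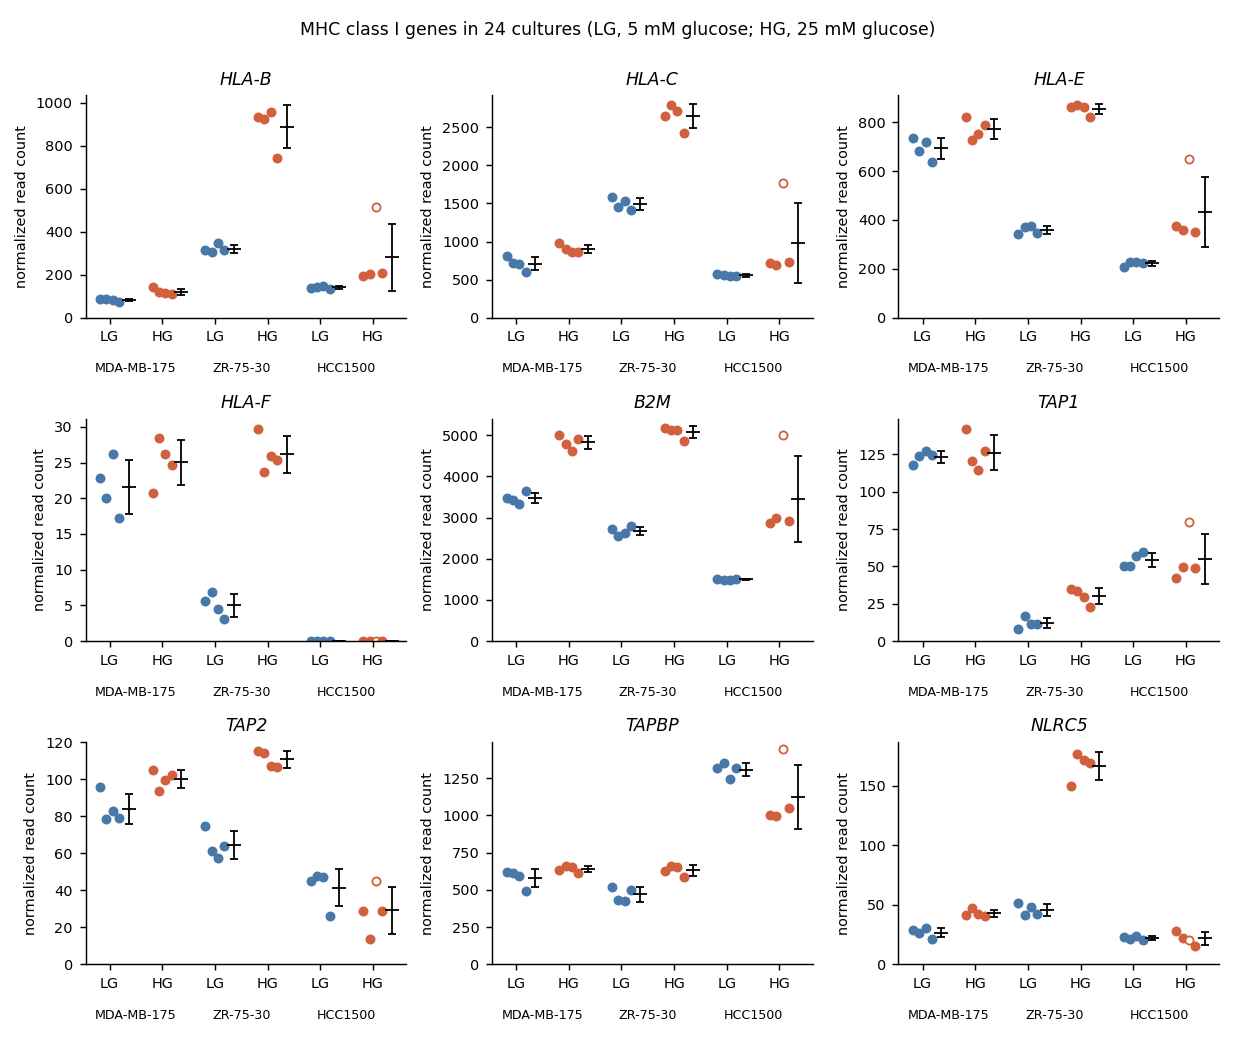
Normalized read count of each of the 9 genes (y axis, from 0) in the 4 LG (blue) and 4 HG (red) samples of each line, with the mean ± SD in black beside the points and HCC1500 HG replicate 3 as an open point. HLA-B in ZR-75-30 goes from 307–348 in LG to 742–959 in HG, HLA-F lies at 0 in every HCC1500 sample, and the open point lies above the other HCC1500 HG samples in 7 panels.

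HLA-B and HLA-C encode classical heavy chains, which present peptides to CD8+ T cells. In ZR-75-30 HLA-B had normalized read counts of 315.8, 306.5, 348.1 and 315.3 in LG and 933.7, 922.1, 958.8 and 741.5 in HG. All HG samples lay above all LG samples, and HG replicate 4 was the lowest of its group. The mean went from 321.4 ± 18.3 to 889.0 ± 99.5 (SD, n = 4), which is 2.77-fold, with a log2 change of 1.46 ± 0.07 (SE) and an adjusted p of 6.77e-12. In MDA-MB-175 HLA-B read 85.9, 85.1, 83.7 and 74.3 in LG and 141.5, 121.0, 114.0 and 110.4 in HG. The conditions were apart here too, at a lower level than in ZR-75-30. The change was 0.56 ± 0.09 with an adjusted p of 0.000323. In HCC1500 HLA-B read 139.1, 142.0, 149.6 and 135.6 in LG and 195.3, 204.0, 513.8 and 210.0 in HG. The 4 HG samples were above the LG samples, but HG replicate 3 was 2.53 times the mean of the other 3, and the change of 0.85 ± 0.29 did not pass the test (adjusted p = 0.0698). Without that library the change was smaller, 0.52 ± 0.06, and passed it (adjusted p = 7.09e-07). With all samples it also passed with edgeR, with DESeq2, under both other scalings and in a fit on all 24 samples (adjusted p from 0.00118 to 0.0290).

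In ZR-75-30 the HLA-C values were 1583, 1459, 1535 and 1409 in LG and 2648, 2791, 2715 and 2424 in HG. Every HG sample was higher, and the mean rose 1.77-fold, from 1497 ± 78 to 2644 ± 158 (log2 change 0.82 ± 0.05, adjusted p = 8.75e-11). In MDA-MB-175 the values were 809.8, 720.9, 710.6 and 606.3 in LG and 982.3, 905.4, 856.9 and 866.4 in HG. The highest LG sample came close to the lowest HG sample without overlap, and the change was 0.35 ± 0.07 (adjusted p = 0.00165). In HCC1500 the values were 580.0, 557.8, 547.2 and 544.7 in LG and 720.3, 688.5, 1768 and 738.1 in HG. With all samples the change was 0.69 ± 0.28 (adjusted p = 0.121), and without HG replicate 3, which was 2.47 times the mean of the others, it was 0.36 ± 0.04 (adjusted p = 1.74e-07). With all samples it passed with edgeR, DESeq2, median-of-ratios scaling and the fit on all 24 samples (adjusted p from 0.00624 to 0.0434).

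HLA-E and HLA-F encode nonclassical heavy chains. HLA-E presents leader peptides of other class I chains to an inhibitory receptor of natural killer cells. In ZR-75-30 HLA-E read 341.3, 370.8, 375.4 and 345.1 in LG and 861.4, 871.5, 861.9 and 821.0 in HG. The HG samples were tightly grouped and far above the LG samples, at 2.38-fold (log2 change 1.25 ± 0.05, adjusted p = 2.58e-13). In HCC1500 it read 207.9, 229.0, 226.6 and 224.4 in LG and 376.4, 358.2, 648.3 and 352.2 in HG. The conditions did not overlap, and the change passed the test with HG replicate 3 (0.91 ± 0.19, adjusted p = 0.0103) and without it (0.70 ± 0.05, adjusted p = 1.07e-09). In MDA-MB-175 HLA-E read 734.4, 680.1, 720.3 and 635.3 in LG and 822.5, 728.8, 751.1 and 789.1 in HG. These ranges overlapped, and the change of 0.16 ± 0.05 was barely past the threshold (adjusted p = 0.0395). It was no longer past it when LG replicate 2 or 4 or HG replicate 1, 3 or 4 was left out (adjusted p from 0.0558 to 0.119).

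HLA-F had few reads. In ZR-75-30 it read 5.54, 6.82, 4.56 and 3.05 in LG, from 4 to 12 reads, and 29.7, 23.6, 25.9 and 25.4 in HG, from 35 to 61 reads. The groups were far apart, and the mean rose 5.24-fold, the largest ratio of means among the members (log2 change 2.22 ± 0.24, adjusted p = 5.77e-07). In MDA-MB-175 the values were 22.9, 20.1, 26.2 and 17.3 in LG and 20.8, 28.4, 26.2 and 24.7 in HG. They overlapped (change 0.21 ± 0.17, adjusted p = 0.418). In HCC1500 HLA-F was at 0 reads in all 8 samples, so it did not pass the filter on low values and 8 of the 9 members were tested in that line. A count of 0 allows a normalized read count of up to 1.29 in the LG sample and 2.23 in the HG sample where 3 reads were worth most.

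B2M encodes the light chain shared by all class I molecules. In MDA-MB-175 it read 3476, 3431, 3338 and 3653 in LG and 4994, 4790, 4616 and 4911 in HG. In ZR-75-30 it read 2717, 2560, 2623 and 2799 in LG and 5177, 5131, 5119 and 4856 in HG. The conditions were well apart in both lines, and the means rose 1.39-fold (log2 change 0.47 ± 0.04, adjusted p = 3.25e-07) and 1.90-fold (0.92 ± 0.04, adjusted p = 1.03e-12). In HCC1500 the LG samples were almost alike at 1505, 1483, 1486 and 1506, and the HG samples read 2873, 2984, 5003 and 2927. HG replicates 1, 2 and 4 were close together and replicate 3 was far above them. B2M rose there by 1.16 ± 0.17 with all samples (adjusted p = 0.00226) and by 0.97 ± 0.03 without HG replicate 3 (adjusted p = 2.18e-15). B2M and HLA-E were called as rising in all 3 lines by the fits on all samples. Of the members, B2M alone was also called in all 3 lines in every fit that left out 1 sample.

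**Figure D2:**
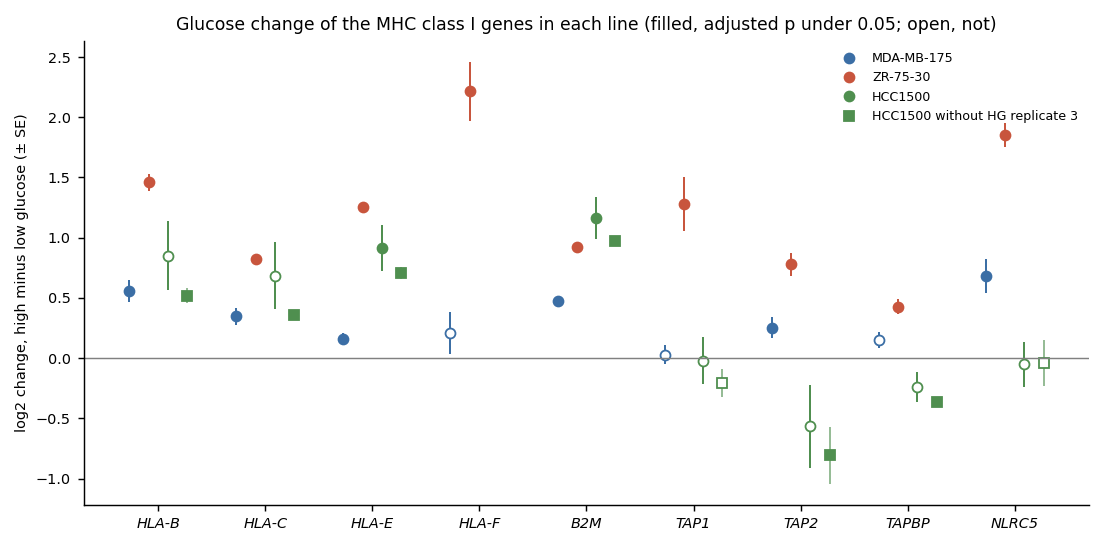
Log2 change of each gene (y axis, HG minus LG on the log2(value + 1) scale, ± SE) in the 3 lines (circles) and in HCC1500 without HG replicate 3 (squares); filled symbols have an adjusted p under 0.05. All 9 ZR-75-30 symbols are filled and lie between 0.43 and 2.22, and those of HCC1500 without replicate 3 run from 0.97 for B2M to -0.81 for TAP2.

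TAP1 and TAP2 encode the subunits of the peptide transporter. In ZR-75-30 TAP1 was low, with 8.31, 17.1, 11.4 and 11.5 in LG and 34.9, 33.8, 29.7 and 22.6 in HG. The conditions did not overlap, and the mean rose 2.51-fold (log2 change 1.28 ± 0.23, adjusted p = 0.000125). In MDA-MB-175 TAP1 read 118.0, 123.95, 127.0 and 124.6 in LG and 142.3, 120.4, 114.8 and 127.2 in HG. The HG samples lay on both sides of the LG samples, and the change was 0.03 ± 0.08 (adjusted p = 0.839). In HCC1500 it read 50.2, 50.5, 56.8 and 59.9 in LG and 41.9, 49.7, 79.5 and 48.9 in HG. With all samples the change was -0.02 ± 0.20 (adjusted p = 0.957). Without HG replicate 3 the other HG samples were all below the LG samples, yet the change of -0.21 ± 0.12 did not pass the test (adjusted p = 0.132).

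TAP2 read 74.8, 61.4, 57.5 and 64.1 in LG and 115.1, 114.1, 107.1 and 106.9 in HG in ZR-75-30. The conditions were apart, and the mean rose 1.72-fold (log2 change 0.78 ± 0.10, adjusted p = 3.16e-06). In MDA-MB-175 it read 95.9, 78.4, 83.1 and 78.8 in LG and 104.8, 93.7, 99.5 and 102.5 in HG. The ranges overlapped, the change was 0.25 ± 0.09 and its adjusted p of 0.0488 was just under the threshold. The call was lost in 7 of the 8 fits that left out 1 sample, all but that without LG replicate 1, with adjusted p from 0.0542 to 0.121. In HCC1500 TAP2 read 44.8, 47.6, 47.2 and 26.3 in LG and 28.9, 13.9, 45.3 and 28.6 in HG. LG replicate 4 was well below its group and HG replicate 3 well above its own, and the change was -0.56 ± 0.34 (adjusted p = 0.292). Without HG replicate 3 TAP2 fell by 0.81 on the log2 scale (SE 0.24, adjusted p = 0.00677).

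The second gene ID under the symbol TAP2 bears on these values. It belongs to a readthrough gene that spans TAP2 and HLA-DOB and shares 2023 exon bases with TAP2 on the same strand. It was at 0 in 14 of the 24 samples and reached 21.4 in HCC1500 HG replicate 2, where TAP2 itself was lowest at 13.9, and 17.7 in HCC1500 LG replicate 4, where TAP2 was at 26.3. HLA-DOB, the other gene that it covers, was at 0 in every HCC1500 and ZR-75-30 sample. In the readthrough gene's row were 60.6% of the summed value in HCC1500 HG replicate 2 and 40.2% in LG replicate 4. Summed over both IDs, HCC1500 read 57.4, 49.9, 48.7 and 43.9 in LG and 28.9, 35.3, 45.3 and 28.6 in HG. Only HG replicate 3 then reached into the LG range, and the change was -0.54 ± 0.18 (adjusted p = 0.0614). The sum, which was chosen after seeing the data, gave 0.70 ± 0.10 in ZR-75-30 (adjusted p = 6.95e-06) and 0.20 ± 0.10 in MDA-MB-175 (adjusted p = 0.158), where the TAP2 call was therefore lost.

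**Figure D3:**
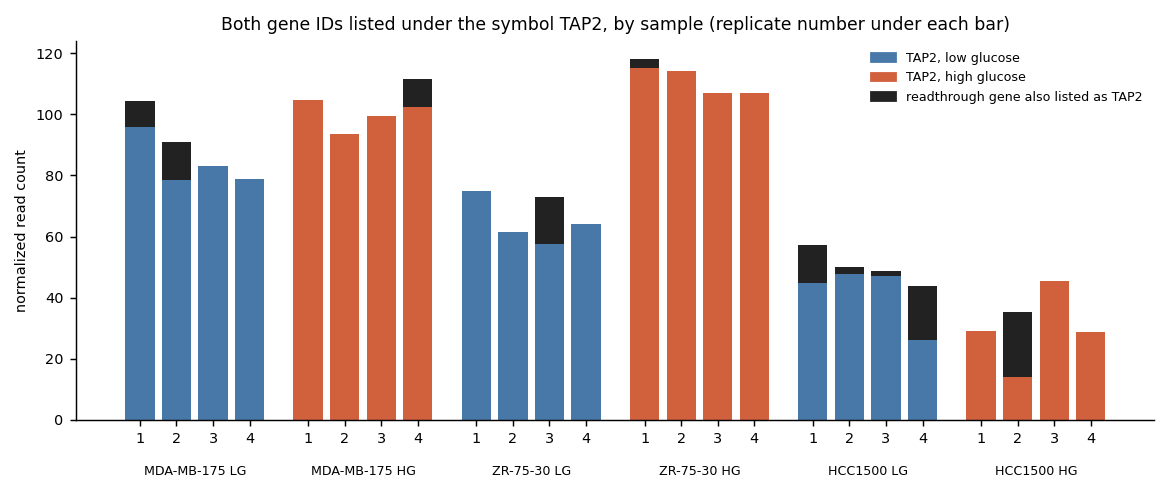
Normalized read count (y axis, from 0) in each of the 24 samples for TAP2 under its own gene ID (blue in LG, red in HG) and, stacked in black, for the readthrough gene also listed as TAP2, with the replicate number under each bar. The black part is 0 in 14 samples and makes up 60.6% of the bar of HCC1500 HG replicate 2.

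TAPBP encodes tapasin, the bridge between transporter and class I molecule. In ZR-75-30 it read 522.4, 434.5, 422.7 and 501.6 in LG and 623.9, 659.5, 656.2 and 585.3 in HG. The groups did not overlap, and the rise of 0.43 ± 0.06 was the smallest among the members in this line (adjusted p = 1.90e-05). In MDA-MB-175 it read 623.2, 610.4, 594.4 and 493.9 in LG and 633.6, 663.4, 654.7 and 614.6 in HG. These overlapped (change 0.15 ± 0.06, adjusted p = 0.101), and the change passed the test with edgeR, DESeq2, median-of-ratios scaling and the replicate block (adjusted p from 0.0359 to 0.0436). In HCC1500 TAPBP read 1317, 1352, 1247 and 1319 in LG and 1006, 995.5, 1444 and 1050 in HG. HG replicates 1, 2 and 4 were below all LG samples and replicate 3 was above them, so that the change was -0.24 ± 0.12 with all samples (adjusted p = 0.223) and TAPBP fell by 0.36 without replicate 3 (SE 0.03, adjusted p = 3.17e-08). Under CPM scaling it fell by 0.31 with all samples (adjusted p = 0.0111).

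NLRC5, the class I transactivator, had values in ZR-75-30 of 51.5, 41.5, 47.9 and 42.0 in LG and 150.0, 176.9, 172.1 and 169.3 in HG. The HG samples were far above the LG samples, and the mean rose 3.65-fold (log2 change 1.85 ± 0.10, adjusted p = 4.51e-11). In MDA-MB-175 it read 28.5, 26.1, 30.2 and 21.4 in LG and 41.2, 47.1, 42.6 and 40.5 in HG. The conditions did not overlap (change 0.68 ± 0.14, adjusted p = 0.00200). In HCC1500 it read 23.2, 21.6, 23.8 and 20.2 in LG and 28.3, 22.4, 20.8 and 15.7 in HG. The HG samples surrounded the LG samples, and the change was -0.05 ± 0.19 (adjusted p = 0.883) with all samples and -0.04 ± 0.19 (adjusted p = 0.873) without HG replicate 3, which was not high for this gene.

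Counted over the members, the HG samples were all above the LG samples for 9 of 9 genes in ZR-75-30, 4 of 9 in MDA-MB-175 (HLA-B, HLA-C, B2M and NLRC5) and 4 of 9 in HCC1500 (HLA-B, HLA-C, HLA-E and B2M). Over all genes tested the same was true of 20.9%, 12.7% and 13.7%, and all HG samples were below all LG samples for 21.1%, 13.9% and 18.7%. No member was in this second class in any line. In a fit on all 24 samples, which pools the spread of the lines, the MDA-MB-175 calls of HLA-B (adjusted p = 0.0718), HLA-C (0.288), HLA-E (0.520) and TAP2 (0.588) were lost, and those of B2M and NLRC5 remained. Without HG replicate 3 there were 6 of the 8 tested members called in HCC1500, of which HLA-B, HLA-C, HLA-E and B2M rose and TAP2 and TAPBP fell, beside 58.5% of all genes called (20.9% higher and 37.7% lower). TAP1 and TAPBP then had all 3 HG samples below all LG samples, and the HLA genes tested and B2M had them all above, beside 36.8% and 21.0% of all genes. A call is thus more common than not in that fit. The median change of the members was then 0.16 and that of all genes -0.12.

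The next question was whether the response differed between the lines, tested as the difference of the glucose change in 1 fit on all 24 samples. The F test over the 3 lines was past the threshold for 7 of the 8 members with reads in all 3 lines, beside 29.3% of all genes. The adjusted p was 6.89e-07 for NLRC5, 0.000147 for HLA-E, 0.000507 for TAP1, 0.00269 for TAPBP, 0.00535 for B2M, 0.00737 for TAP2 and 0.0393 for HLA-B. HLA-F, at 0 reads in HCC1500, passed the filter of this fit through the other lines only. Its F test (adjusted p = 7.11e-07) takes its change in HCC1500 as exactly 0, and only its difference between ZR-75-30 and MDA-MB-175 is measured. HLA-C did not pass (adjusted p = 0.351), and it passed without HCC1500 HG replicate 3 (adjusted p = 0.000110), as did the 7 others, where 48.6% of all genes were called. The HLA-B call was lost in 15 of the 24 fits that left out 1 sample (adjusted p from 0.0502 to 0.0772).

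Between pairs of lines, the change in ZR-75-30 exceeded that in MDA-MB-175 by 2.01 ± 0.25 for HLA-F (adjusted p = 1.14e-05), 1.25 ± 0.26 for TAP1 (0.00218), 1.17 ± 0.20 for NLRC5 (0.000307), 1.09 ± 0.17 for HLA-E (0.000178) and 0.90 ± 0.27 for HLA-B (0.0356), beside 5.64% of all genes called higher (5.54% lower, 11.2% in all). The change of B2M differed between these lines by 0.45 ± 0.16 (adjusted p = 0.0703) with all samples and by 0.45 ± 0.05 (8.83e-08) without HCC1500 HG replicate 3, which changes the spread shared by the fit and not the estimate. HCC1500 was below ZR-75-30 by 1.90 for NLRC5, 1.34 for TAP2, 1.30 for TAP1 and 0.66 for TAPBP, each past the threshold (adjusted p from 2.63e-07 to 0.00288), beside 15.2% of all genes called lower (9.99% higher, 25.2% in all). Without HG replicate 3 these differences stayed past the threshold, and HLA-B, HLA-E and HLA-C were lower as well, by 0.94, 0.55 and 0.46. For the HLA genes the adjusted p ran from 4.19e-07 to 0.000284, beside 4646 of 18127 genes called lower and 2704 higher. The change of B2M in HCC1500 exceeded that in MDA-MB-175 by 0.69 ± 0.16 (adjusted p = 0.00328) and that of HLA-E did so by 0.76 ± 0.17 (0.00370), while that of NLRC5 was lower by 0.73 (0.0115), beside 6.46% of all genes called higher and 11.3% lower (17.7% in all). Without HG replicate 3 the HLA-E difference was 0.55 ± 0.07 (adjusted p = 2.01e-06) and that of NLRC5 -0.72 (0.00792). The change of TAPBP was then lower too, by 0.51 (0.000218), beside 2057 of 18127 genes called higher and 3830 lower. For B2M the difference of HCC1500 from ZR-75-30 was 0.24 ± 0.16 (adjusted p = 0.298) and 0.05 ± 0.05 without HG replicate 3 (adjusted p = 0.484). B2M and TAP2 thus went opposite ways relative to MDA-MB-175 in HCC1500 without that library: the change of TAP2 was lower by 1.06 (adjusted p = 0.00288) and that of B2M higher by 0.49 (adjusted p = 1.94e-08). With all samples the TAP2 difference was -0.82 ± 0.32 and did not pass the test (adjusted p = 0.0791). These TAP2 values are those of its own ID, and summed over both IDs the difference with all samples was -0.74 ± 0.18 (adjusted p = 0.00523).

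Levels between genes were compared per kilobase of the canonical transcript. B2M was the most abundant member in all 6 groups, at 1585 to 5377 normalized read counts per kb, and HLA-C was the most abundant heavy chain in each group, at 361.5 to 1715 per kb. Next came HLA-E, HLA-B and TAPBP, whose order depended on the line. In MDA-MB-175 in LG they stood at 271.8 for HLA-E, 168.3 for TAPBP and 53.5 for HLA-B, and in ZR-75-30 in LG at 209.3 for HLA-B, 140.6 for HLA-E and 136.3 for TAPBP. In HCC1500 in LG TAPBP was the second most abundant member at 379.2 per kb, next to HLA-C at 361.5. The transporter genes, HLA-F and NLRC5 stayed below 50 per kb in every group.

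**Figure D4:**
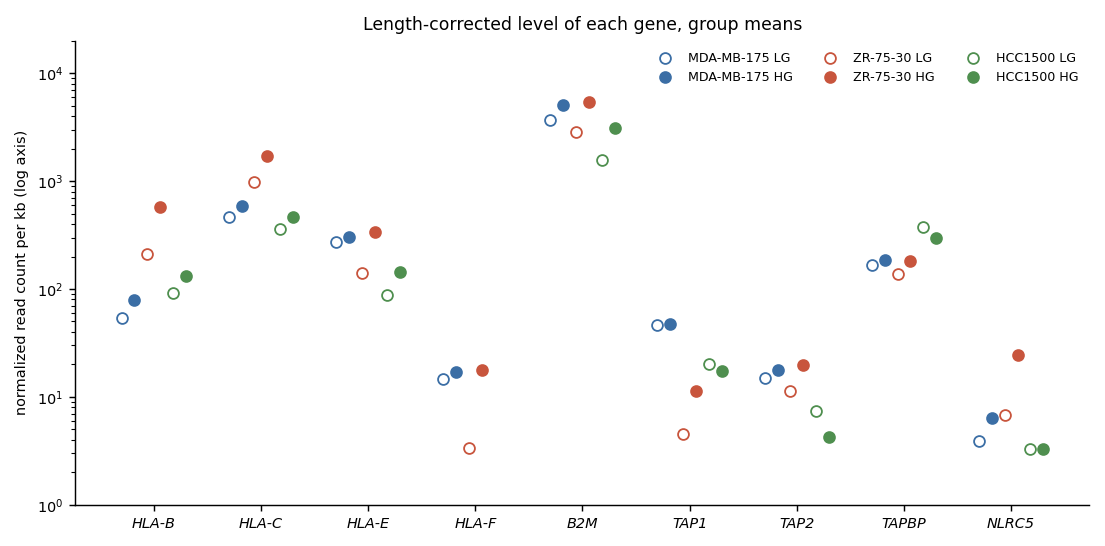
Mean normalized read count per kb of canonical transcript (y axis, log scale) for each gene in the 6 groups, open in LG and filled in HG, with HCC1500 HG drawn without replicate 3 and HLA-F left out in HCC1500, where it is 0. B2M is highest in each group, and TAP1 falls below TAP2 in ZR-75-30 only.

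Within a sample, the ratio of TAP1 to TAP2 per kb separated ZR-75-30 from the other lines. It ran from 0.234 to 0.584 in ZR-75-30 in LG and from 0.445 to 0.637 in HG, against 2.42 to 3.32 over both conditions in MDA-MB-175 and at least 2.23 in every HCC1500 sample. With TAP2 summed over both gene IDs it was at most 0.622 in ZR-75-30 and at least 1.84 in HCC1500. TAP1 thus had the lower level of the transporter genes in ZR-75-30 alone, and it stayed there after a 2.51-fold rise. The ratio of B2M to the summed heavy chains (HLA-B, HLA-C, HLA-E and HLA-F per kb) in LG was 2.15 ± 0.15 for ZR-75-30, 4.64 ± 0.60 for MDA-MB-175 and 2.93 ± 0.06 for HCC1500 (SD, n = 4). In HG it was 2.04 ± 0.08, 5.20 ± 0.19 and, in the 3 HCC1500 samples without replicate 3, from 4.11 to 4.39. In HCC1500 these 3 samples lay above all LG samples, whereas replicate 3 had a ratio of 3.06. HLA-C to HLA-B per kb fell from 4.65 ± 0.28 to 2.98 ± 0.21 in ZR-75-30, with no overlap between conditions.

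The lines were compared with each other in LG, the control condition. HLA-B and HLA-C are among the most polymorphic genes of the genome, and the HLA genes resemble one another in sequence. A read from an allele unlike the reference can thus be lost or assigned to a related gene. For the HLA genes a difference in level between lines and a difference in how well the alleles mapped cannot be told apart. A comparison within 1 line keeps the alleles constant. B2M, the TAP genes, TAPBP and NLRC5 do not share this limit.

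MDA-MB-175 and ZR-75-30 differed in 8 of 9 members, beside 63.8% of all genes (39.5% higher in MDA-MB-175 and 24.3% lower). TAP1 was 10.2-fold higher in MDA-MB-175, at 123.4 ± 3.8 against 12.1 ± 3.6 (log2 difference 3.29 ± 0.18, adjusted p = 2.26e-13). HLA-F, HLA-E, B2M and TAPBP were also higher in MDA-MB-175, by 1.94, 0.95, 0.38 and 0.30. HLA-B was 3.91-fold and HLA-C 2.10-fold higher in ZR-75-30, and NLRC5 was 1.72-fold higher there, at 45.7 ± 4.8 against 26.5 ± 3.8 (adjusted p = 4.34e-05). TAP2 differed by 0.38 ± 0.22 (adjusted p = 0.145). NLRC5 and TAP1 were thus higher in different lines.

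MDA-MB-175 and HCC1500 differed in 7 of 9 members, beside 72.6% of all genes (34.7% higher in MDA-MB-175 and 37.9% lower). TAPBP was 2.25-fold higher in HCC1500, at 1308 ± 44 against 580.5 ± 58.9 (log2 difference -1.18 ± 0.10, adjusted p = 2.49e-10), and HLA-B was 1.72-fold higher in HCC1500. HLA-E was 3.12-fold, B2M 2.32-fold, TAP1 2.27-fold and TAP2 2.03-fold higher in MDA-MB-175. HLA-F, at 0 in HCC1500, was at least 16.7-fold higher in MDA-MB-175, taking as its bound the HCC1500 LG library where 3 reads were worth most. HLA-C differed by 0.35 ± 0.19 (adjusted p = 0.0984) and NLRC5 by 0.24 ± 0.14 (adjusted p = 0.127). Without HCC1500 HG replicate 3, which is in neither LG group but sets the shared spread, the HLA-C difference passed the test (adjusted p = 2.51e-05), and without MDA-MB-175 LG replicate 4 that of NLRC5 did (adjusted p = 0.0410).

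ZR-75-30 and HCC1500 differed in all 9 members, beside 73.0% of all genes (29.0% higher in ZR-75-30). TAP1 was 4.51-fold and TAPBP 2.78-fold higher in HCC1500 (adjusted p = 3.95e-10 and 3.74e-12). HLA-C was 2.68-fold, HLA-B 2.27-fold, NLRC5 2.06-fold, B2M 1.79-fold, HLA-E 1.61-fold and TAP2 1.55-fold higher in ZR-75-30, and HLA-F at least 3.87-fold. The median difference of all genes was -0.23 in this pair and lay between -0.36 and -0.08 under the other scalings, and the members' differences kept their sign under each. The TAP2 difference, 0.66, was 0.27 under CPM scaling (adjusted p = 0.151), and its call was also lost without HCC1500 LG replicate 4 (adjusted p = 0.0675).

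Ordered over the 6 groups, with HCC1500 HG replicate 3 left out, HLA-B went from 889.0 in ZR-75-30 HG through ZR-75-30 LG, HCC1500 HG, HCC1500 LG and MDA-MB-175 HG to 82.2 in MDA-MB-175 LG, a span of 10.8-fold, and only HCC1500 LG and MDA-MB-175 HG overlapped as neighbours. TAP1 spanned 10.5-fold, from MDA-MB-175 HG through MDA-MB-175 LG, HCC1500 LG, HCC1500 HG and ZR-75-30 HG to ZR-75-30 LG, and its only overlapping neighbours were the MDA-MB-175 groups. B2M spanned 3.39-fold, in the order ZR-75-30 HG, MDA-MB-175 HG, MDA-MB-175 LG, HCC1500 HG, ZR-75-30 LG and HCC1500 LG, and only the first pair overlapped. High glucose thus brought B2M in HCC1500 above the LG level of ZR-75-30. NLRC5 stood at 167.1 in ZR-75-30 HG, above all other groups, and the groups from ZR-75-30 LG to MDA-MB-175 HG and from MDA-MB-175 LG to HCC1500 HG overlapped with their neighbours.

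The genes that surround the members in the pathway were read from 5 lists, whose members and calls were counted by the same fits. Their counts stand beside the all-gene shares given above, 23.4% higher and 22.7% lower in ZR-75-30, 11.9% and 13.7% in MDA-MB-175, and 7.46% and 13.0% in HCC1500 (20.9% and 37.7% without HG replicate 3), and their medians beside 0.01, -0.02 and -0.06 over all genes in that order of lines (-0.12 without HG replicate 3). Of 12 class I related genes found, ZR-75-30 had 6 of 12 tested that rose and 2 that fell, MDA-MB-175 4 of 11 that rose and 1 that fell, and HCC1500 none of 8 (3 that rose and 2 that fell without HG replicate 3). The median change was 0.33, 0.26 and 0.15. ULBP1, a ligand of the activating receptor NKG2D, rose in MDA-MB-175 from 12.7 ± 3.0 to 28.7 ± 3.2 (1.14 ± 0.19, adjusted p = 0.000379). RAET1E, another NKG2D ligand, fell by 0.85 in ZR-75-30 (98.9 ± 4.7 to 54.6 ± 5.8, adjusted p = 1.93e-06), the only line with values clear of the floor. AZGP1, a secreted class I-like protein, fell by 0.22 in both ZR-75-30 and MDA-MB-175. Its change in HCC1500 was -0.05 (adjusted p = 0.930), and without HG replicate 3 it fell there by 0.33 (0.0377).

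In the list of peptide supply and loading, 7 of 16 genes rose and 4 fell in ZR-75-30, 3 rose and 5 fell in MDA-MB-175, and none of 15 rose and 2 fell in HCC1500. The medians were 0.12, -0.05 and -0.25. PSMB8, a catalytic subunit of the immunoproteasome that lies next to TAP1, rose in ZR-75-30 from 20.4 ± 6.8 to 76.5 ± 6.2 (1.91 ± 0.19, adjusted p = 1.31e-07) and in MDA-MB-175 by 0.58 ± 0.15 (adjusted p = 0.00783). ERAP2, a peptidase that trims peptides in the endoplasmic reticulum, rose in MDA-MB-175 from 17.0 ± 2.2 to 43.0 ± 5.5 (1.29 ± 0.16, adjusted p = 1.36e-05) and in ZR-75-30 by 0.85 ± 0.08 (adjusted p = 7.21e-08). In HCC1500 the change of PSMB8 was -0.30 with all samples and -0.50 without HG replicate 3, past the threshold in neither (adjusted p = 0.417 and 0.0634). That of ERAP2 was -0.26 (adjusted p = 0.163), and without HG replicate 3 ERAP2 fell by 0.23 (adjusted p = 0.0386). PSME2, a proteasome activator subunit, fell by 0.27 in MDA-MB-175, THOP1, a cytosolic peptidase, fell by 0.51 in ZR-75-30, and UGGT1, a glucosyltransferase of glycoprotein quality control, fell by 0.69 in HCC1500 (adjusted p = 0.0291) and by 0.48 without HG replicate 3 (6.78e-10). In HCC1500 with all samples the changes of PSME2 and THOP1 were 0.15 and -0.07, neither past the threshold (adjusted p = 0.747 and 0.862). Without HG replicate 3 PSME2 and THOP1 fell there by 0.16 and 0.34 (adjusted p = 0.00103 and 3.80e-06). PSME2 and UGGT1 fell in ZR-75-30 as well, by 0.21 and 0.18 (adjusted p = 0.00221 and 0.00479). Without HCC1500 HG replicate 3 there were 3 of 15 that rose and 7 that fell in that line.

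Among 19 transcription factors of class I genes, 9 rose and 1 fell in ZR-75-30, 2 rose and 5 fell in MDA-MB-175, and 2 rose and 5 fell in HCC1500 (4 and 9 without HG replicate 3). The medians were 0.15, 0.03 and -0.17. IRF1, an interferon-induced activator of class I promoters, rose by 1.39 ± 0.19 in ZR-75-30 (16.1 ± 2.9 to 44.02 ± 8.2, adjusted p = 5.95e-06) and by 0.78 ± 0.08 in MDA-MB-175 (102.6 ± 9.9 to 176.8 ± 14.3, adjusted p = 4.41e-06), and its change in HCC1500 was 0.38 ± 0.18 (adjusted p = 0.177), or 0.21 without HG replicate 3 (0.0579). IRF9, part of the complex that type I interferon activates, went in different directions: it rose by 0.98 ± 0.26 in ZR-75-30 (adjusted p = 0.00479) and fell by 0.67 in HCC1500 (adjusted p = 0.0468, or by 0.87 and 5.34e-08 without HG replicate 3) and by 0.38 in MDA-MB-175 (adjusted p = 0.0251). RFX5, a subunit of the factor that binds the X box with NLRC5, fell by 0.93 in HCC1500 with no overlap (355.7 ± 19.3 to 186.0 ± 12.3, adjusted p = 0.000217) and by 0.25 in MDA-MB-175 (adjusted p = 0.00148). In ZR-75-30 its change was 0.05 ± 0.05 (adjusted p = 0.387). ATF1, a factor that binds CRE letters, rose by 0.92 ± 0.09 in HCC1500 (87.8 ± 4.5 to 167.4 ± 10.5, adjusted p = 0.000340). Without HG replicate 3 RFX5 fell there by 0.95 (1.54e-10) and ATF1 rose by 0.90 (9.06e-09). NFKB1, which encodes an NF-kappaB subunit, fell by 0.51 in ZR-75-30 and by 0.30 in MDA-MB-175, and rose by 0.32 ± 0.09 in HCC1500 (adjusted p = 0.0378, or by 0.36 and 6.11e-05 without HG replicate 3).

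Of the interferon receptors and kinases, 9 symbols were listed under 10 gene IDs. In MDA-MB-175 4 of 10 rose and none fell, in ZR-75-30 2 rose and 1 fell, and in HCC1500 none was called, or 6 that fell without HG replicate 3. The medians were 0.17, 0.03 and -0.28. SOCS1, a feedback inhibitor of cytokine signaling, rose by 1.47 ± 0.33 in ZR-75-30 from a level near the floor (1.88 ± 0.88 to 6.76 ± 1.14, adjusted p = 0.00113), and JAK2 fell there by 0.62 (adjusted p = 0.000909). In MDA-MB-175 SOCS3, a related inhibitor, rose by 0.61 ± 0.22 (adjusted p = 0.0492). Its change in HCC1500 was -0.19 with all samples (adjusted p = 0.431), and without HG replicate 3 it fell there by 0.34 (0.00188). Of the class II genes, few passed the filter, and 1 of 7 fell in MDA-MB-175, 1 of 3 rose in ZR-75-30 and none of 3 was called in HCC1500 (1 fell without HG replicate 3), with medians of 0.05, 0.24 and 0.09. No gene of the 5 lists was called with the same sign in all 3 lines by the fits on all samples.

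**Figure D5:**
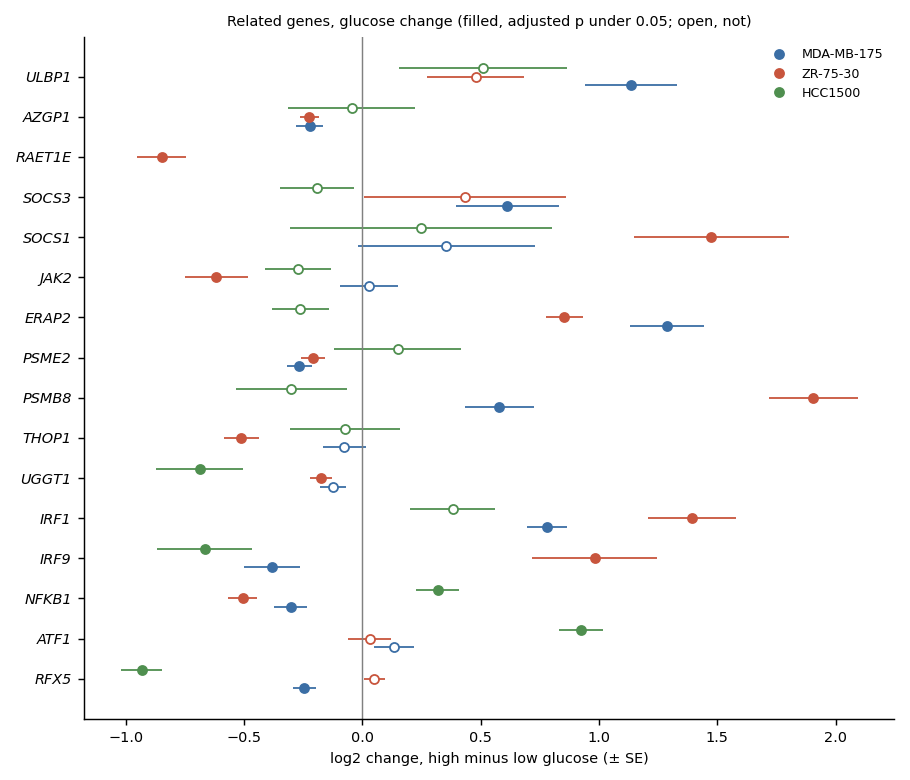
Log2 change (x axis, HG minus LG, ± SE) of named genes of the 5 lists in each of the 3 lines, filled where the adjusted p is under 0.05. PSMB8 (1.91) and SOCS1 (1.47) are farthest to the right in ZR-75-30, and RFX5 (-0.93) is farthest to the left in HCC1500.

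Markers of other cell types were read because class I genes are abundant in leukocytes. Of 8 leukocyte markers, 3 were listed (CD14, CD68 and LYZ) and 5 were not analysed here. Their summed level in ZR-75-30 was 5.54 to 6.84 in LG and 33.6 to 43.9 in HG, almost all of it CD68, a lysosomal protein, while LYZ was at 0 in all 4 HG samples. In HCC1500 the sum was 2.15 to 5.08 in LG and 11.2 to 29.0 in HG, and in MDA-MB-175 it was 11.96 to 14.7 and 12.5 to 23.7. The part of this in the class I changes was not tested. The 7 listed fibroblast and endothelial markers summed to 108.8 to 125.1 in ZR-75-30 LG and 82.8 to 103.3 in HG, to 237.9 to 263.0 and 178.2 to 234.6 in HCC1500, and to 155.7 to 183.0 and 160.1 to 181.8 in MDA-MB-175. The 3 listed basal or mesenchymal markers summed to 4.56 to 6.67 in HCC1500 LG and 11.1 to 18.4 in HG, where ZEB1 had means of 4.22 and 12.7, to 19.9 to 28.0 and 20.5 to 26.7 in MDA-MB-175, and to 1.71 to 5.54 and 2.06 to 5.40 in ZR-75-30. The 9 luminal markers summed to 49037 to 53680 in ZR-75-30 LG and 34942 to 40810 in HG, to 33106 to 34847 and 31595 to 51421 in HCC1500, and to 54270 to 64553 and 57753 to 62591 in MDA-MB-175. The part of these in the class I changes was not tested either.

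The genes whose pattern was most like the members' mean, each member standardized, were named as a description, since all samples share their libraries. Over 24 samples these included CD55 (r = 0.96), CLK3 (0.95), NSA2 (0.94) and MVP (0.93), among 13301 genes that averaged 10 or more. With each line's mean removed and without HCC1500 HG replicate 3, over 23 samples, they included EEF1A2 (0.98), RPL15 (0.98), NEDD9 (0.98) and TBC1D14 (0.98). CD55 encodes a complement regulator of the cell surface, and MVP the major vault protein.

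On GRCh37, 7 members lie on chromosome 6: HLA-F at chr6:29690552-29706305, HLA-E at chr6:30457286-30461971, HLA-C at chr6:31236526-31239907, HLA-B at chr6:31321649-31334844, TAP2 at chr6:32789610-32806516 and TAP1 at chr6:32812986-32821593, and TAPBP at chr6:33267471-33282061. B2M is at chr15:45003556-45011049 and NLRC5 at chr16:57023397-57117443. Counting by strand is not stated for these samples, so reads of overlapping genes on the opposite strand cannot be told apart. TAP1 shares 672 exon bases with PSMB8-AS1, whose group means were 1.47 to 4.30, and TAPBP shares 1397 with a noncoding gene. HLA-B shares 1421 exon bases on its own strand with the pseudogene DHFRP2, and HLA-F shares 535 with HLA-F-AS1.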

How the data were processed

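RNA from 24 samples of 3 breast cancer cell lines was sequenced. Per the study's methods, the authors used Trimmomatic to trim reads and TopHat to map them to hg19, and counted them over Ensembl genes; the submitters' processing notes name hg38 and edgeR, and which build made this table is not settled here. The deposited signal values are gene counts divided by 1 factor per sample by the authors: dividing by the worth of 1 read gave whole reads (tolerance 0.1 read) for 100% of values in each sample, 9140024 to 17998819 reads in all. The methods describe CPM with edgeR's TMM factors, but the deposited values sum to 5559394 to 7594840 per sample, so how the factor was set is not settled here. Depth limits precision through counting error only, and the reads carry no molecular identifiers.

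Values were tested as log2(value + 1) with limma 3.58.1 (R 4.3.3, trend, Benjamini-Hochberg over all genes, threshold 0.05), for genes at 0.5 or more in at least 4 fitted samples. Glucose was tested in each line on its 8 samples, and lines in LG and differences of change in a fit of 24 samples with 6 group means. Fold changes on this scale understate those of low genes. Alternatives were pseudocounts of 0.1 and 5, no filter, median-of-ratios and CPM rescaling, edgeR 4.0.16 and DESeq2 1.42.0 on the recovered reads, a replicate block, 1 fit for all samples and each sample left out. The procedure was tested on simulated data. Named genes were the members, TXNIP, and per wider list and line the largest called rise and fall; some genes that the rules name are not reported here. Members and lists were chosen with earlier results of these data known. Gene coordinates and transcript lengths came from GENCODE lifted to GRCh37, and promoter windows from RefSeq on GRCh38.p14.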

Additional observations from a re-analysis of the deposited data

Results flagged for a closer look

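Within groups of 4 samples, 1 sample stood far from the rest, by Dixon's criterion, in 7 of 52 member groups, where chance gives about 1 in 20. HCC1500 HG replicate 3 accounted for 5 of them: HLA-B at 513.8 (next sample 210.0), HLA-C at 1768 (738.1), HLA-E at 648.3 (376.4), B2M at 5003 (2984) and TAPBP at 1444 (1050). The others were HLA-B in ZR-75-30 HG replicate 4 at 741.5 (next sample 922.1) and TAP2 in HCC1500 LG replicate 4 at 26.3 (44.8). In that last sample 40.2% of the summed TAP2 value stood under the readthrough gene.

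The glucose change differed between the lines by limma's F test for 7 of the 8 members with reads in all 3 lines, beside 29.3% of all genes (48.6% without HCC1500 HG replicate 3). The adjusted p was 6.89e-07 for NLRC5, 0.000147 for HLA-E, 0.000507 for TAP1, 0.00269 for TAPBP, 0.00535 for B2M, 0.00737 for TAP2 and 0.0393 for HLA-B. HLA-F had an adjusted p of 7.11e-07, but it was at 0 reads in HCC1500, so that only its changes in the other lines were measured.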

How the results depend on the processing

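ZR-75-30 kept 9 of 9 members called, all higher, under every alternative run. The count of members called in MDA-MB-175 went from 6 to 2 in the fit on all 24 samples (B2M and NLRC5 remained), and in HCC1500 from 2 to 4 under median-of-ratios rescaling, edgeR, DESeq2 and the fit on all 24 samples, where HLA-B and HLA-C joined, and to 4 under CPM rescaling, where HLA-B was added as higher and TAPBP as lower, and ranged from 2 to 6 when 1 sample was left out (6 without HG replicate 3). Over the wider lists, 25 calls in MDA-MB-175 became 6 in the fit on all 24 samples, and 9 in HCC1500 became 4 with the replicate block, 15 with DESeq2, 27 in the fit on all 24 samples, and 4 to 35 when 1 sample was left out (35 without HG replicate 3, and 5, 4 and 5 without LG replicates 1, 2 and 4). TAP1 and NLRC5 were not called and changed sign: TAP1 in HCC1500 was 0.031 under median-of-ratios rescaling, 0.0240 with edgeR and 0.045 with DESeq2, and -0.21 to 0.093 with 1 sample left out, TAP1 in MDA-MB-175 was -0.031 to 0.072 with 1 sample left out, and NLRC5 in HCC1500 was 0.010 with edgeR, 0.028 with DESeq2 and -0.18 to 0.089 with 1 sample left out. The causes were not tested.

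Replicate numbers did not pair the samples (mean correlation of same-numbered samples 0.05, 0.04 and 0.02). With the replicate block 9 members were called in ZR-75-30, 7 in MDA-MB-175 and 2 in HCC1500. Over all genes, 3350 calls in HCC1500 became 1964 with the block, 2015 to 2104 without any 1 LG sample, 5842 in the fit on all 24 samples and 9504 without HG replicate 3, and 4368 in MDA-MB-175 became 2011 in the fit on all 24 samples. The F test over the lines went from 5316 calls to 8809 without HCC1500 HG replicate 3. Of the HCC1500 calls 36.4% were higher, against 48.9% under median-of-ratios rescaling, 47.8% with edgeR and 52.4% with DESeq2. Under CPM rescaling, calls higher in MDA-MB-175 than in ZR-75-30 went from 61.9% to 72.7%, and calls higher in ZR-75-30 than in HCC1500 from 39.8% to 29.0%. HLA-F in ZR-75-30 LG rested on 4 to 12 reads a sample.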

Other observations

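Around HLA-F, the member at 0 in HCC1500, other genes were also at 0 there. Of 10 other listed genes within 250 kb of HLA-F on GRCh37, 5 were at 0 in all 8 HCC1500 samples and above 0 in a sample of another line, as were 4.72% of all genes above 0 in another line. HLA-F-AS1 and RPL23AP1, among the 5, share exon bases with HLA-F, so their values are not independent of it. GABBR1, a subunit of the GABA-B receptor, had values of 47.6 to 117.2 in ZR-75-30 and 27.8 to 36.9 in MDA-MB-175. ZFP57, an imprinting factor, ranged from 35.5 to 49.1 in MDA-MB-175 and was at 0 in ZR-75-30 as well. HCG4, HLA-F-AS1 and RPL23AP1 were low where present, at most 6.03. In the same window POLR1HASP ranged from 9.65 to 31.0 in HCC1500. Whether this stretch is altered in HCC1500 was not tested.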
